A study of Mus musculus with 2 samples.

Results

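The genes described here are 36 enzymes, transporters and regulators of glycolysis and the tricarboxylic acid (TCA) cycle. They were taken by name from a table of 48550 gene rows, and each name matched 1 row. The reads came from total nuclear RNA of F121-6, a line of mouse embryonic stem (ES) cells whose labels give a hybrid cross and female sex. Each cell carries a 129 copy and a *Mus musculus castaneus* (cas) copy of its chromosomes. The cells were cultured in serum with LIF on mouse embryonic fibroblasts that mitomycin C had stopped from dividing. The samples form 1 group of 2 libraries from this 1 line, with no treatment named in the labels, and every gene's reads were split within each library into reads of the 129 and of the cas allele. Whether the libraries stem from separate cultures is not stated, and their differences could be technical only. The p-values from limma rest on the spread between libraries pooled over genes of like abundance, not on that of a single gene.

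Glycolysis splits glucose into pyruvate in the cytosol. Pyruvate is then either reduced to lactate or carried into the mitochondrion, where the pyruvate dehydrogenase complex turns it into acetyl-CoA for the TCA cycle. ES cells in culture are known for a high rate of glycolysis. Several steps are served by isozymes from separate genes, and highly expressed glycolytic genes have left intronless copies, called processed pseudogenes, across the mouse genome.

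The design text lists expression among the features in which the alleles of such crosses were compared, so 129 was set against cas within each library. Library 1 held 28523744 allele-assigned reads and library 2 held 31402765. A gene was tested if both libraries held 20 or more of its allele reads, and all 36 genes passed. Their median depth was 1054.5 reads in library 1 (range 84 to 16761) and 1257 in library 2 (95 to 18419). Allelic ratios are given as log2(129/cas) of the reads, scaled to CPM (reads relative to the size of their column) with sizes from trimmed means of M values (TMM), plus 0.1 CPM. TMM sets the typical gene to 0, which corresponds to 55.14% of reads from 129 in library 1 and 56.21% in library 2. A positive ratio means that a gene had more 129 reads than that, and a negative ratio fewer. A call is a Benjamini-Hochberg adjusted p under 0.05 in limma over all 15509 tested genes.

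Reads of near-identical copies can be assigned to the wrong row, so the copies were located first. The coding sequence of each gene was compared with all other annotated transcripts, and a copy was counted at 80% identity over at least 50% of the coding sequence. Matches in genes not annotated as pseudogenes that span more than 3 times the coding length were not counted, and their reads were not added. These were all matches of Gapdh, such as Gm3839 (99.3% identity). Copies were found for 15 of the 36 genes. Gapdh stood apart with 302 copies, 73 of them at least 95% identical. Ldha had 26, Eno1 10, Pkm 9, Tpi1 6, Pgam1 5 and Pgk1 3. The highest identity of a Tpi1 copy was 94.2%, whereas Pgk1, Pgam1 and Gapdh each had a copy of 100.0% identity. Gapdh, Tpi1 and Pgk1 were set apart when the genes were chosen, as enzymes with many processed copies, but by this count Tpi1 and Pgk1 had fewer copies than Ldha, Eno1 or Pkm.

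The coding stretches printed here show the best case for telling a gene from its copy by a 100 bp read within the coding sequence. They are the 120 aligned bases with the most differences, from GENCODE transcripts of the reference strain, and capitals mark the bases that differ. Eno1 (coding bases 697 to 816) is set against Gm4735, a processed pseudogene on chromosome 2 that differs at 5 of 1302 coding bases. Tpi1 (coding bases 466 to 585) is set against Tpi-rs5, a processed pseudogene on chromosome 10 that differs at 73 of 769 aligned bases. The identity of this pair was 90.5% in the alignment used here, below the 94.2% given above as the highest of a Tpi1 copy. The pair may thus overstate how well Tpi1 can be told from its closest copy.
Eno1: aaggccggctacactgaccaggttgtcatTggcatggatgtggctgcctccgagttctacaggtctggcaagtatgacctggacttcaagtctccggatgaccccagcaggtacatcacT
Gm4735: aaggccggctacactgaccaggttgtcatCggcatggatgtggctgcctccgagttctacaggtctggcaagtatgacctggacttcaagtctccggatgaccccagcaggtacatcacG
Tpi1: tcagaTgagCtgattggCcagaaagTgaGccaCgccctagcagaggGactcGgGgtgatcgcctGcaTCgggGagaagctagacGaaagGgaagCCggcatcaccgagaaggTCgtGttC
Tpi-rs5: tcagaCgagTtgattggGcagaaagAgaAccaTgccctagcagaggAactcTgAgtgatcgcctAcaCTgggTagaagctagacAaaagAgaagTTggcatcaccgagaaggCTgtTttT

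In the Eno1 pair, 2 bases differ, T726C and T816G, with the Eno1 base first and positions counted from 1 at the first coding base. Even in this stretch, the most divergent of its length, most positions are shared. The Tpi1 pair differs at 21 bases in a stretch of the same length, which is likewise the most divergent of that pair.

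Of the 36 genes, 35 had a fitted difference of less than 2-fold between the alleles. The exception was Tpi1. This gene of triose phosphate isomerase gave 11.8-fold more scaled reads from 129 than from cas, and no other gene of the set passed a call at 2-fold. In all, 3 genes were higher from 129 (Tpi1, Slc2a3 and Idh1) and 12 were higher from cas, while 21 were not called. The share of called genes was 41.7%, against a background of 43.9% of all tested genes, so the set was called about as often as all tested genes together. Among the 11808 genes with at least the reads of the lowest member, 49.3% were called, a larger share than in the set. By direction, the background was 21.9% higher from 129 and 22% higher from cas. By role, 1 of 2 glucose transporter genes, 3 of 7 genes of upper glycolysis, 3 of 7 of lower glycolysis, 3 of 7 of pyruvate fate and 5 of 13 of the TCA cycle were called. All 15 called genes had the same direction in both libraries, but the call is made on these same ratios, so this is no separate test. The direction was also shared by 32 of the 36 members and by 12283 of the 15509 tested genes. Without Gapdh, Tpi1 and Pgk1, 2 of the other 33 genes were higher from 129 and 12 from cas (42.4% called). Calls of at least 2-fold made up 2.78% of the set against 17.3% of all tested genes, and 14.4% of these 11808. The median log2 ratio of the set was -0.12 and that of all tested genes 0.00, and 25 of the 36 ratios were below 0.

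The directions of small ratios depended on the scaling. In library 1, 53.64% of all allele reads were from 129, and in library 2, 54.16%. With 1 shared library size for both alleles, 16 members were higher from 129 and 3 from cas, against 41.9% and 9.62% of all tested genes (51.6% called), and the median of all tested genes moved to 0.32. Scaling by column totals gave 8 and 9, against 27% and 16.6% (43.6% called), with the median of all genes at 0.10. Of the 15 called members, 10 kept their direction and 6 kept their call under every scaling tried: Tpi1, Slc2a3, Idh1, Eno1, Eno2 and Pdk1. Pdhb, Pcx and Sucla2 lost their calls with column totals and with 1 shared library size, and the other 6 lost theirs with the latter. Of the genes without a call, Pfkp, Gapdh, Ldha, Fh1 and Mdh2 were called from 129 under both of these scalings. With 1 shared library size alone, so were Slc2a1, Hk2, Aldoa, Pgk1, Ldhb, Pdha1, Idh2 and Idh3a. Without pairing the alleles by library (no replicate block), 5 members were called, Tpi1 and Slc2a3 from 129 and Eno1, Eno2 and Pdk1 from cas, against 25.5% of all tested genes (13.9% from 129 and 11.6% from cas). An exact binomial test in both libraries called 4 from 129 and 11 from cas, against 22.6% and 23% of all tested genes (45.5% called). Ratios are given with TMM scaling unless another is named.

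The labels name no step that removed RNA of the fibroblasts, and fewer cells of a type and less RNA per cell cannot be told apart in such bulk samples. Of 25 tested fibroblast markers, 19 were higher from 129, none from cas and 6 were not called, with a median ratio of 2.81. The 30 markers together had 66.6% of their reads from 129 in library 1 and 70.2% in library 2, while the members together had 53.5% and 53.8%. Fn1 alone, with a ratio of 0.16, held 42205 of the 60630 reads of these markers in library 1 and 43423 of 68292 in library 2. Lum, Twist1 and S100a4 had 0 reads. Of 14 tested ES cell markers, 1 was higher from 129 and 6 from cas (median -0.18), and Sox2 had 0 allele-assigned reads. Summed over both alleles, fibroblast markers made up 2130 and 2170 CPM in libraries 1 and 2, and ES cell markers 3520 and 3390 CPM. Most of the fibroblast sum was Fn1. The part of fibroblast RNA in the 129 reads of Tpi1, Slc2a3 and Idh1 was not tested.

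**Figure D1:**
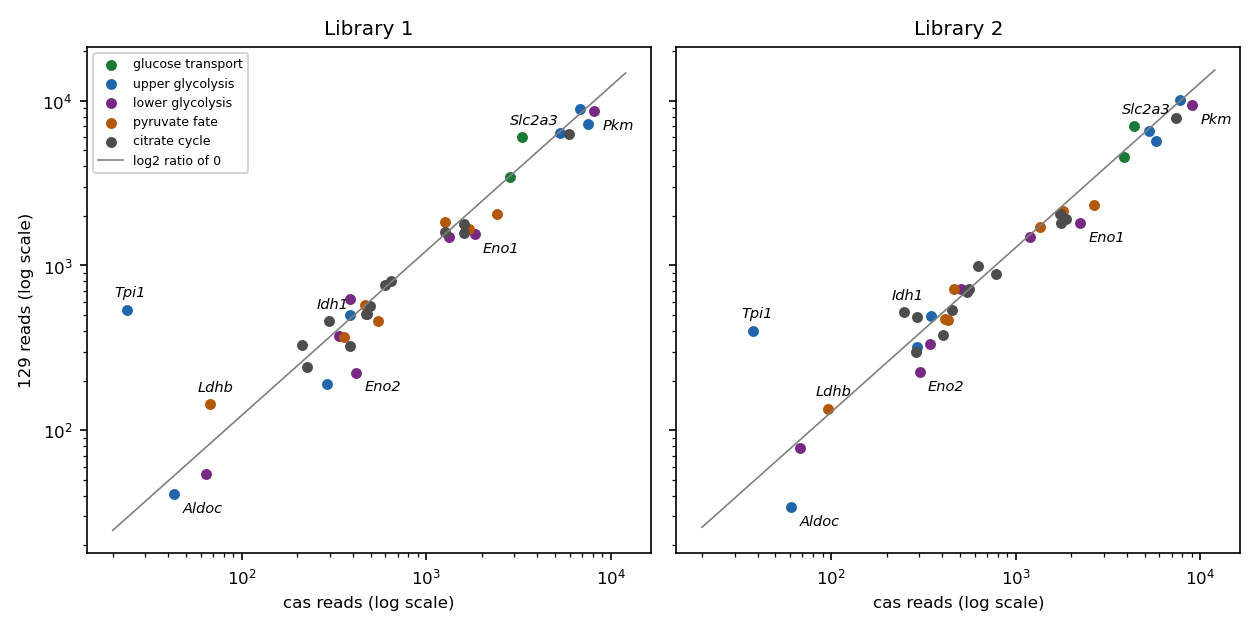
Reads from 129 (y axis, log scale) against reads from cas (x axis, log scale) for each of the 36 genes, 1 panel per library, coloured by role, with a line where the log2 ratio is 0. Tpi1, with 24 and 38 cas reads against 538 and 401 from 129, lies farthest from the line. Eno2 in library 1 (-1.19) and Aldoc in library 2 (-1.16) also lie more than 2-fold from it.

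**Figure D2:**
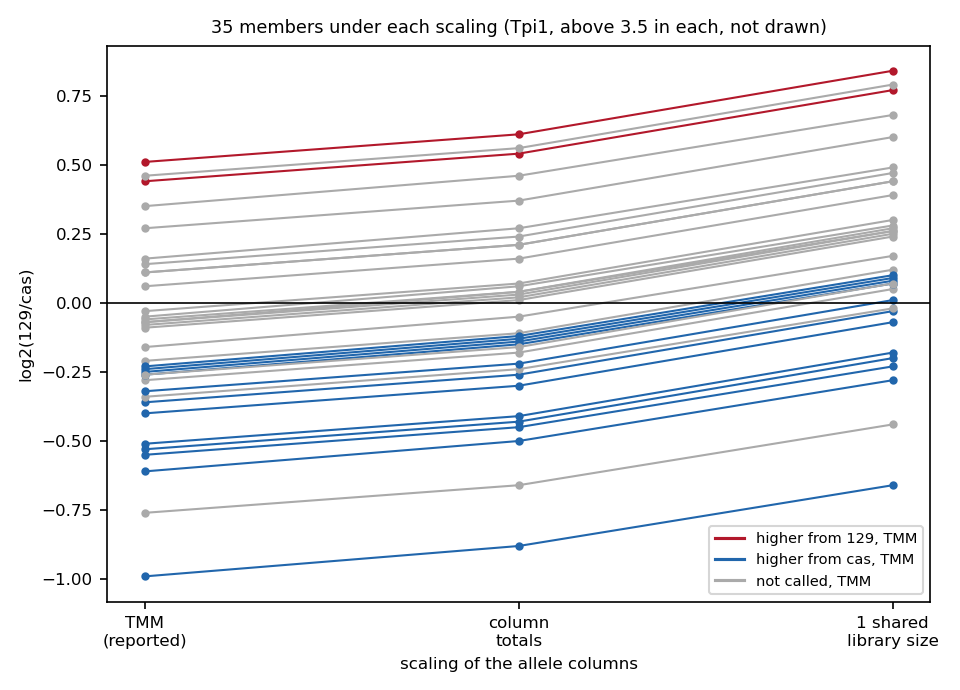
The log2(129/cas) of 35 genes (y axis) under TMM, column totals and 1 shared library size (x axis), coloured by their call under TMM, without Tpi1, whose ratios were 3.56, 3.66 and 3.88. The lines run nearly parallel, and many of the small negative ratios cross 0 with 1 shared library size.

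Glucose enters cells through facilitative transporters of the Slc2a (GLUT) family. Slc2a3, the high-affinity transporter GLUT3 (chromosome 6, 122727809 to 122801640, mm10), had 6016 reads from 129 and 3302 from cas in library 1, then 7011 and 4392 in library 2. The 129 reads outnumbered the cas reads in both libraries, with a 129 share of 63.0% ± 2.18 (SD, n = 2). Its log2 ratio was 0.44 (SE 0.06, adjusted p = 1e-13 in limma), with 0.57 in library 1 and 0.31 in library 2. Slc2a1, the widely expressed GLUT1, had 3452 and 2827 reads in library 1 and 4566 and 3878 in library 2, a ratio of -0.07 without a call (95% interval -0.19 to 0.06). None of the 4 tested genes within 150 kb of Slc2a3 was higher from 129. Nanog, a pluripotency factor whose start lies 94.2 kb away, was higher from cas (-0.35, SE 0.11), though -0.02 without a call with 1 shared library size. Clec4a1 was higher from cas (-1.98, SE 0.54), while Foxj2 and Necap1 had -0.18 and -0.03 without a call.

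The first steps of glycolysis trap and split the sugar. Hk2, the hexokinase that phosphorylates glucose, had 6348 reads from 129 and 5274 from cas in library 1, and 6585 and 5265 in library 2. Its ratio of -0.03 (95% interval -0.14 to 0.07) was among the most precise of the set, and both libraries lay at the typical share (-0.03 and -0.04). Gpi1, glucose-6-phosphate isomerase, was higher from cas, with 7212 against 7522 reads and 5728 against 5733, a ratio of -0.36 in each library (SE 0.05, adjusted p = 5.9e-11 in limma). Its allele reads were nearly equal, and the call rests on the typical gene having more reads from 129. The ratio was -0.03 without a call with 1 shared library size.

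Phosphofructokinase commits sugar to glycolysis, and its subunits come from separate genes. Pfkp, the platelet-type subunit, had 8934 and 6791 reads in library 1 and 10141 and 7805 in library 2, a ratio of 0.06 without a call (95% interval -0.04 to 0.15). The muscle-type subunit Pfkm was higher from cas (-0.55, SE 0.18, adjusted p = 0.0068 in limma). It had 191 reads from 129 and 289 from cas in library 1 but 321 and 291 in library 2, so the excess of cas reads was seen in library 1 alone, with ratios of -0.89 and -0.22. The liver-type subunit Pfkl, which is outside the set, was higher from 129 (0.59, SE 0.12). The difference between the subunit genes was not tested.

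Aldolase splits fructose bisphosphate, and neither aldolase gene was called. Aldoa had 498 and 385 reads in library 1 and 494 and 347 in library 2 (0.11, 95% interval -0.17 to 0.40). Its table window is centred 8154 bp from the start that GENCODE annotates. Aldoc had the fewest reads of the set, 41 and 43 in library 1 and 34 and 61 in library 2. Its ratio of -0.76 has an interval from -1.63 to 0.11, which takes in both no difference and a 2-fold difference toward cas.

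Tpi1 interconverts the products of aldolase. It lies on chromosome 6 (124810586 to 124814296) and had 538 reads from 129 against 24 from cas in library 1, and 401 against 38 in library 2. Both 129 counts exceeded both cas counts by more than 10-fold. The 129 share was 93.5% ± 3.10 (SD, n = 2), and the log2 ratio 3.56 (SE 0.27, adjusted p = 1.1e-37 in limma), with 4.12 in library 1 and 2.99 in library 2. The ratio was 3.66 with column totals and 3.88 with 1 shared library size. Of its 6 copies, 1 was a row of the table, and it had 0 reads in all 4 columns, so adding the copies' reads left the ratio at 3.56. Spsb2, an adaptor of ubiquitin ligases, overlaps Tpi1 on the opposite strand, and how strand entered the counting is not stated in the sources used here. Spsb2 itself had 26 reads from 129 and 5 from cas in library 1, and 27 and 16 in library 2, a ratio of 1.10 (SE 0.71) without a call.

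No gene near Tpi1 had a ratio as large. Within 60 kb of its start, 7 other genes were tested, of which 1 was higher from 129, 2 were higher from cas and 4 were not called. Usp5, a deubiquitinase whose start lies 15.2 kb away, had 0.46 (SE 0.16), and the cell cycle gene Cdca3 beside it had 0.28 (SE 0.22). On the other side, the enolase gene Eno2, starting 44.6 kb away, was higher from cas (-0.99, SE 0.18). The other gene higher from cas, Gpr162 (-0.92, SE 0.33), had -0.60 without a call with 1 shared library size. Cdca3 was called from 129 under that scaling (0.60), and Usp5 and Eno2 kept their calls. Gapdh, another member, starts 352.2 kb from Tpi1. The set holds 8 genes on chromosome 6, of which 2 were higher from 129 and 3 from cas, against 159 and 215 of all 792 tested genes of that chromosome (47.2% called).

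**Figure D3:**
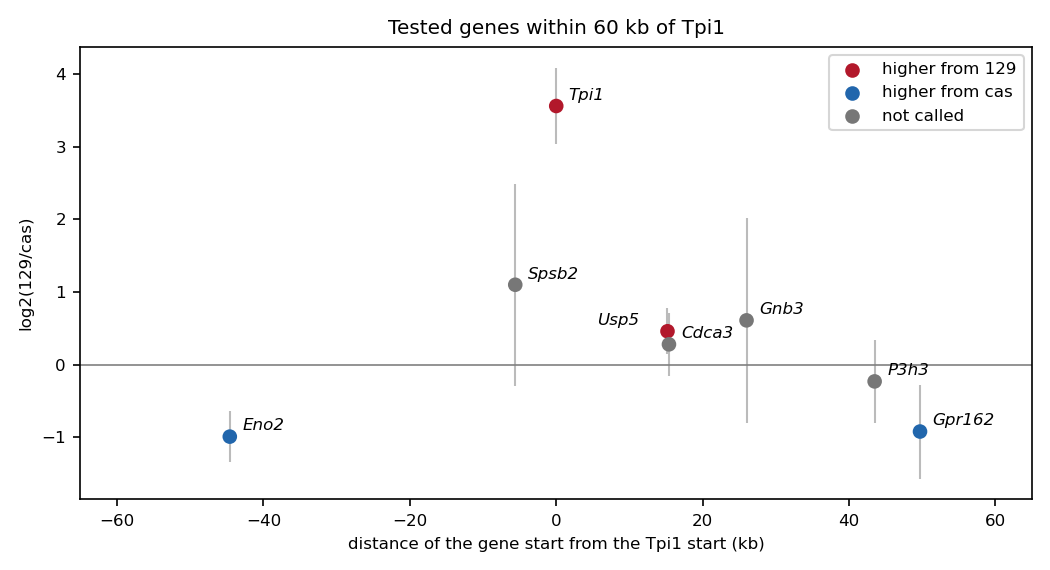
The log2(129/cas) (y axis) of the tested genes within 60 kb of Tpi1, by the distance of their start from the Tpi1 start in kb (x axis). Points are fitted ratios, bars are 95% intervals, and colours give the call: Tpi1 sits at 3.56, while the other genes lie between -0.99 and 1.10.

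The lower part of glycolysis begins with Gapdh, which oxidises glyceraldehyde phosphate. It had 624 reads from 129 and 384 from cas in library 1, then 716 and 508 in library 2. The ratio was 0.27 (95% interval 0.01 to 0.52, adjusted p = 0.082 in limma), with 0.40 in library 1 and 0.13 in library 2. Of its 302 copies, 286 were rows of the table and 79 of these had reads, 187 from 129 and 118 from cas in library 1 and 226 and 169 in library 2 in sum. Among these, Gm8174, a copy of 92.6% identity, had 37 reads from 129 and 1 from cas in library 1, and 30 and 1 in library 2. With the copies' reads added, the ratio of Gapdh was 0.25, and it was not called in either form. With column totals (0.37) or 1 shared library size (0.60) Gapdh was called from 129.

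Pgk1, phosphoglycerate kinase, makes the first ATP of the pathway and lies on the X chromosome (106187100 to 106203699). It had 1499 and 1332 reads in library 1 and 1491 and 1192 in library 2, a ratio of -0.08 (95% interval -0.26 to 0.09). Its 3 copies had 0 reads. Pdha1, the other X-linked gene of the set, had 0.14 (95% interval -0.11 to 0.39), and for the other 553 tested genes of the X chromosome the median was -0.07. Reads of both X-linked genes thus came from both alleles in a near-typical share. Pgam1, phosphoglycerate mutase, had 372 and 337 reads in library 1 and 334 and 345 in library 2 (-0.28, SE 0.16, adjusted p = 0.15 in limma).

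Enolase makes phosphoenolpyruvate, and the ratios of all 3 enolase genes were below 0, of which 2 were called. These signs and calls held under every scaling tried, but the ratio of Eno3 was only -0.02 with 1 shared library size. Eno2, the neuronal form, had 223 reads from 129 and 416 from cas in library 1, then 225 and 302 in library 2. The cas reads outnumbered the 129 reads in both, with a 129 share of 38.8% ± 5.51 (SD, n = 2) and a ratio of -0.99 (SE 0.18, adjusted p = 1.7e-07 in limma). Eno3, the muscle form, had 54 and 64 reads, then 78 and 68, a ratio of -0.34 with an interval from -1.06 to 0.37.

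Eno1, the ubiquitous enolase (chromosome 4, 150236721 to 150248879), had 1543 reads from 129 and 1831 from cas in library 1, then 1811 and 2245 in library 2. The ratio was -0.61 (SE 0.08, adjusted p = 2.6e-13 in limma), with -0.54 and -0.67 in the libraries. Of its 10 copies, 5 were rows of the table and 2 of these had reads, which went the other way. Gm4735, whose coding stretch is printed above, had 234 reads from 129 and 24 from cas in library 1, and 268 and 31 in library 2, a 129 share of 90.2% ± 0.78 (SD, n = 2). Eno1b, a copy of 99.4% identity on chromosome 18 that is annotated as protein coding, had 263 and 40 reads, then 208 and 50, a share of 83.7% ± 4.38. When the copies' reads were added to Eno1, the ratio was -0.29 (adjusted p = 0.00054 in limma), still a call but less than the ratio of Eno1 alone by more than 1.5 times. The part that exchange of reads between Eno1 and its copies has in these ratios was not tested. Near Eno1, the 4 other tested genes within 150 kb also had ratios below 0, from -1.60 for Gpr157 to -0.29 for the transcriptional corepressor Rere. These 2 were called, but Rere had 0.04 without a call with 1 shared library size.

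**Figure D4:**
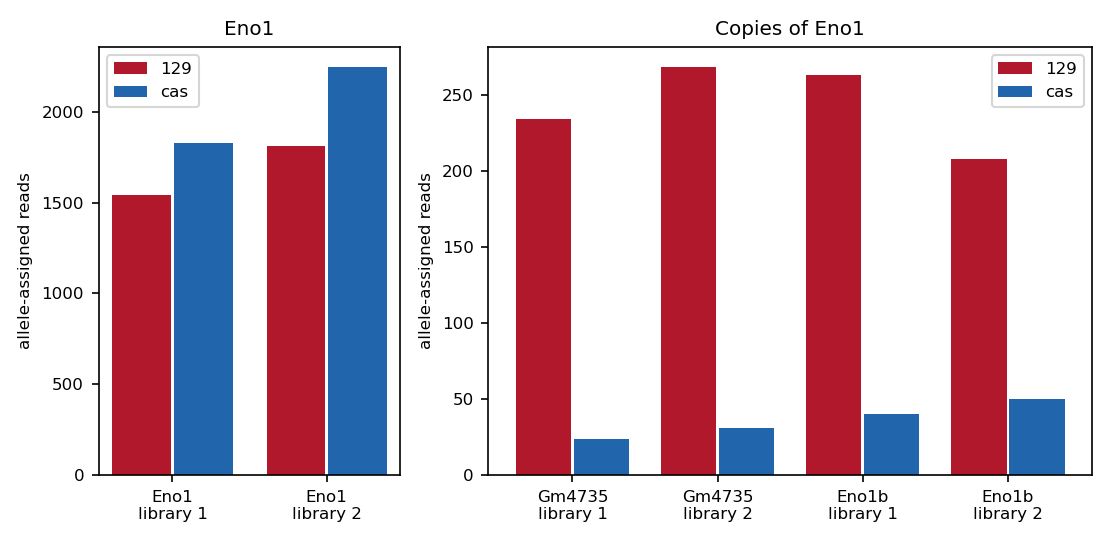
Allele-assigned reads (y axis) of Eno1 (left) and of its copies Gm4735 and Eno1b (right), with bars for 129 and cas in each library (x axis). Eno1 had more cas reads than 129 reads in both libraries, while both copies had at least 208 reads from 129 and at most 50 from cas.

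Pkm, pyruvate kinase, closes glycolysis and had the most reads of the set. It had 8633 and 8128 reads in library 1 and 9401 and 9018 in library 2. The ratio was -0.26 (SE 0.05, adjusted p = 5.9e-07 in limma), and 0.07 without a call with 1 shared library size, so its direction depends on the scaling.

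Lactate dehydrogenase and the pyruvate dehydrogenase complex compete for pyruvate. Ldha had 1836 and 1265 reads in library 1 and 1709 and 1350 in library 2, with ratios of 0.24 and -0.02 that straddled the typical gene (0.11, SE 0.09). Ldhb had 144 and 67, then 135 and 96 (0.46, 95% interval -0.10 to 1.03), and neither gene was called with TMM scaling. Ldha was called from 129 with column totals (0.21) and with 1 shared library size (0.44), and Ldhb with the latter (0.79). Pdk1, the kinase that switches pyruvate dehydrogenase off, was higher from cas. It had 2067 reads from 129 and 2403 from cas in library 1, then 2337 and 2669 in library 2. The libraries agreed closely (-0.51 and -0.55), and the ratio was -0.53 (SE 0.07, adjusted p = 2.5e-12 in limma). Within 150 kb, Rapgef4 was also higher from cas (-0.54, SE 0.16), whereas the integrin gene Itga6 had 0.12 without a call. Rapgef4 had -0.22 without a call with 1 shared library size, and Itga6 was called from 129 there (0.45) and with column totals (0.22).

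Of the subunit genes of the pyruvate dehydrogenase complex in the set, only Pdhb was called with TMM scaling. Pdhb, the E1 beta subunit, was higher from cas (-0.40, SE 0.14, adjusted p = 0.011 in limma), with 461 and 550 reads in library 1 and 464 and 429 in library 2. Its libraries had -0.55 and -0.25, and only in library 1 did cas reads outnumber 129 reads. Column totals (-0.30) and 1 shared library size (-0.07) each ended the call. Pdha1, the E1 alpha subunit, had 575 and 467, then 720 and 463, without a call. Dlat, the E2 subunit, had -0.21 (95% interval -0.50 to 0.08) from 370 and 356 reads and 472 and 417. Pdhx, the E3-binding protein outside the set, was higher from 129 (0.25, SE 0.10, adjusted p = 0.03 in limma). Pcx, pyruvate carboxylase, which makes oxaloacetate from pyruvate, was higher from cas (-0.23, SE 0.08, adjusted p = 0.013 in limma). Its libraries had -0.35 and -0.10, and with 1 shared library size the ratio was 0.10 without a call.

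Isocitrate dehydrogenases oxidise isocitrate in the cytosol (Idh1) or the mitochondrion (Idh2 and the NAD-dependent Idh3 complex). Idh1 (chromosome 1, 65158616 to 65186500) had 457 reads from 129 and 298 from cas in library 1, then 519 and 248 in library 2. The 129 reads outnumbered the cas reads in both libraries (64.1% ± 5.05, SD, n = 2), and the ratio was 0.51 (SE 0.16, adjusted p = 0.0036 in limma). Idh2 had 1592 and 1263, then 2047 and 1749 (-0.05, SE 0.08). Idh3a and Idh3b had -0.07 and -0.09, and the sign of all 3 uncalled genes differed between the libraries. Idh3g, the X-linked subunit gene outside the set, was higher from cas (-0.28, SE 0.10), but had 0.05 without a call with 1 shared library size.

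Idh1 and Pikfyve, a phosphoinositide kinase gene, start head to head 0.2 kb apart, and their calls went in opposite directions. Pikfyve had 3624 reads from 129 and 3706 from cas in library 1, and 3600 and 3609 in library 2, a ratio of -0.35 (SE 0.06, adjusted p = 2.2e-07 in limma). With 1 shared library size Pikfyve had -0.02 without a call and Idh1 0.84 with one. The 203 bases between the RefSeq start of Idh1 and the GENCODE start of Pikfyve (GRCm38.p6, chromosome 1, 65186480 to 65186682, minus strand) are printed because both genes are transcribed away from them. Capitals mark the 1 match to the CCAAT box.
Idh1-Pikfyve: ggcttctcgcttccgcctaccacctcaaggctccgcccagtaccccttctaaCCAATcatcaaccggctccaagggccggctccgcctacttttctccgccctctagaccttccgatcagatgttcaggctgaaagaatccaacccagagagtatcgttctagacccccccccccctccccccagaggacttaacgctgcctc

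Letters before the start were searched in the 34 of 36 genes with a RefSeq promoter entry (GRCm38.p6), over the 250 bases before the start, on both strands. The core motif of hypoxia-inducible factors, ACGTG or GCGTG, was present in 22 of the 34 (64.7%) and in 38.6% of all 32851 promoters of that length. The E-box CACGTG, which overlaps the first of these, was present in 3 (8.8%, against 6.0%), and CCAAT in 16 (47.1%, against 33.8%). For 2 genes, Aldoa and Ldha, the RefSeq start lay over 1 kb from the centre of the table's window. Each member was given 1 entry, the one starting nearest its table window. The 32851 are all entries, not matched for expression or base composition, and the difference between the shares was not tested. Matches are descriptions of the reference letters, which do not show where the alleles differ.

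The oxoglutarate dehydrogenase complex follows in the cycle. Ogdh, its E1 subunit, was higher from cas, with 1576 and 1604 reads in library 1 and 1812 and 1762 in library 2 and the same ratio of -0.32 in both libraries (SE 0.08, adjusted p = 0.00037 in limma). It was 0.01 without a call with 1 shared library size. Dlst, the E2 subunit, had 508 and 475, then 538 and 454 (-0.16, 95% interval -0.42 to 0.11). Dld, the E3 subunit that also serves pyruvate dehydrogenase, had 570 and 497, then 687 and 544 (-0.06, 95% interval -0.31 to 0.19).

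Succinyl-CoA ligase pairs 1 alpha subunit, Suclg1, with a GTP-forming (Suclg2) or an ATP-forming (Sucla2) beta subunit, and all 3 genes were higher from cas. Suclg1 had 323 reads from 129 and 387 from cas in library 1, and 376 and 404 in library 2, a ratio of -0.51 (SE 0.15, adjusted p = 0.0033 in limma). Suclg2 had 6279 and 5949, then 7861 and 7414 (-0.25, SE 0.05), and Sucla2 1780 and 1591, then 1908 and 1879 (-0.24, SE 0.08). In the beta subunit genes the 129 reads outnumbered the cas reads in both libraries, by less than in the typical gene. With 1 shared library size Suclg2 and Sucla2 had 0.08 and 0.09, and Suclg1 -0.18, all without a call. The table window of Sucla2 is centred 27345 bp from the start that GENCODE annotates. The copy of Suclg2, Gm15163 on the X chromosome (98.9% identity), had 11 reads from 129 and 57 from cas in library 1, and 10 and 159 in library 2, and adding them gave Suclg2 a ratio of -0.27.

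The last steps regenerate oxaloacetate. Fh1, fumarate hydratase, had 329 and 212 reads in library 1 and 488 and 294 in library 2. Its libraries were close (0.33 and 0.37), and the ratio of 0.35 (SE 0.17) missed the threshold in limma (adjusted p = 0.075). An exact binomial test in each library called it in both (adjusted p = 0.016 and 0.00094), a test that covers counting error only. Mdh2, the mitochondrial malate dehydrogenase, had 807 and 646, then 986 and 623 (0.16, 95% interval -0.06 to 0.38). The cytosolic Mdh1 had 242 and 227, then 299 and 290 (-0.26, 95% interval -0.62 to 0.10).

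**Figure D5:**
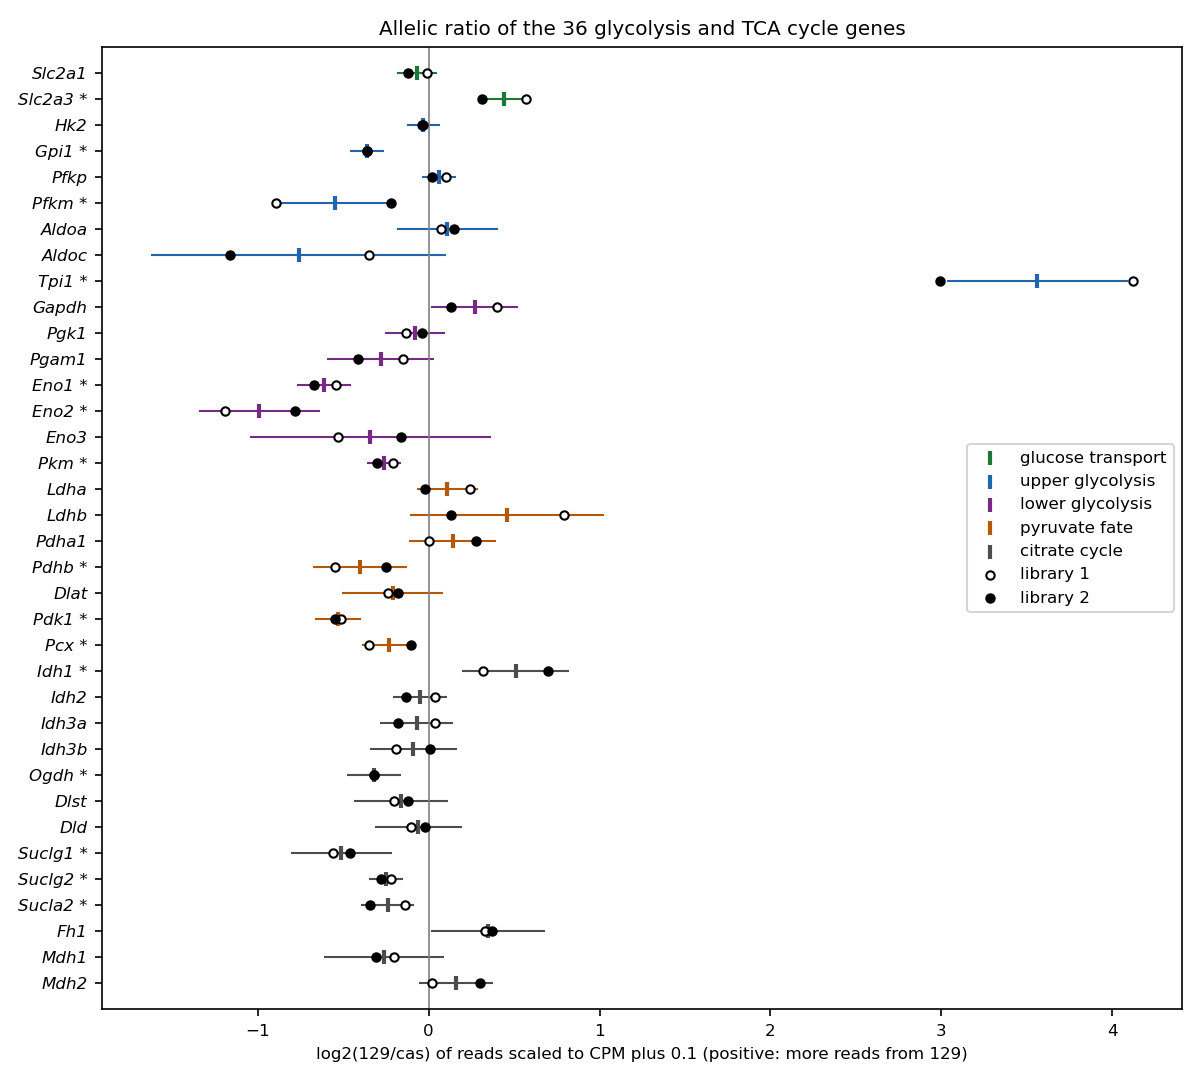
The log2(129/cas) (x axis) of the 36 genes (y axis) in order of the pathway. Ticks with bars are the fitted ratio and its 95% interval, open and filled points are libraries 1 and 2, and asterisks mark calls; Tpi1 lies at 3.56 and the others between -0.99 and 0.51.

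For the 21 genes without a call, the 95% interval lay within a 2-fold difference in 18, and reached beyond it for Aldoc, Eno3 and Ldhb, the genes with the fewest reads. The SEs rest on a spread pooled over genes of like abundance, so they do not reflect the distance between the libraries of a single gene. Ratios of the libraries differed in sign for 4 genes, none of them called. Another annotated gene overlapped on the opposite strand for 14 of the 36 and on the same strand for 6, and reads of such partners could not be told apart here.

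Total reads can be compared between genes only per length, and also depend on how many positions distinguish the alleles, a number not stated in the sources used here. The region over which reads were counted is not known here either. The annotated span with its introns was used as the length, and the order of genes rests on that choice. In allele-assigned RPKM over the annotated span, the levels were highest for Pkm (25.5 in each library), Gpi1 (17.8 in library 1 and 12.6 in library 2) and Eno1 (9.73 and 10.6). Ldhb (0.418 and 0.415), Pfkm (0.422 and 0.489) and Aldoc (0.612 and 0.628) were lowest. Between isozyme genes, Ldha (7.68 and 6.88) lay above Ldhb and Pfkp (7.99 and 8.28) above Pfkm in both libraries.

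A further 109 genes of carbohydrate and mitochondrial metabolism were listed, of which 90 had enough reads to be tested. Of these, 24 were called from 129 and 15 from cas, and 51 had no call (43.3% called, against the background of 43.9%), with a median ratio of 0.00. With 1 shared library size, 45 of the 90 were higher from 129 and 7 from cas, against 41.9% and 9.62% of all tested genes. At the entry to the pathways, the hexokinase gene Hk1 had 951 reads from 129 and 455 from cas in library 1, and 1287 and 691 in library 2 (0.65, SE 0.11). Citrate synthase (Cs), the first enzyme of the cycle, had 860 and 431, then 945 and 411 (0.77, SE 0.12, adjusted p = 3.6e-09 in limma).

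Of the 4 succinate dehydrogenase subunits, Sdha was higher from 129 (0.38, SE 0.10), and Sdhb (-0.04), Sdhc (0.11) and Sdhd (-0.24) were not called. Among the genes with the most reads in this list were Slc25a13, an aspartate-glutamate carrier, higher from cas (-0.79, SE 0.04), and Glud1 (0.35) and Acly (0.21), each higher from 129. The largest called ratios belonged to genes with few reads. The transporter gene Slc2a6 had 30 and 2 reads, then 57 and 3 (3.18, SE 0.82). Ldhd had 2.52, Pdk2 1.96 and Slc2a12 -2.22. Ldhc, the testis form of lactate dehydrogenase, had 2.12, from 0.56 in library 1 and 3.67 in library 2.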

How the data were processed

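The 36 genes and the gene lists were chosen with earlier results of these data known. Strand-specific libraries of nuclear RNA were sequenced as paired-end reads and merged with earlier reads of the same libraries, per the labels' protocols. The submitters' processing notes name Bowtie2 and mm10. The counting program, the SNP set and how strand was treated are not stated there. The authors deposited RPKM values, in columns that the file headers name counts: value times length in kb summed to between 999966.7 and 999996.2 per column. These products were whole multiples of 1 step per column within 0.01 read for 100.0% of values, which gave back whole reads. The deposited lengths matched the annotated span within 2 bp for 0 of the 36 genes, so spans came from GENCODE M21, matched by name, chromosome and strand for 95.6% of rows. The deposited RPKM was thus not compared between genes.

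Columns were scaled by TMM and fitted with limma 3.58.1 (R 4.3.3) on log2 of CPM plus 0.1, with trended variances and library as a block. The pairing follows from the design, since the alleles were read out of the same RNA. Genes under 20 allele reads in either library and 1570 rows of the Y chromosome (the cells are female) were left out. Fold changes on this scale understate changes of genes with few reads. The fit was tested on simulated data with few changed genes and the same dispersion for every gene. The real data held far more calls, so this test does not give the error of the calls reported here. Copies were found with blastn 2.17.0. Of the other pathway genes, named were the 4 with the most reads, the 6 called genes of largest ratio and subunits or isozymes of the members' steps, of which some are not reported here. Intervals cover counting error and the pooled spread between 2 libraries only.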

Additional observations from a re-analysis of the deposited data

How the results depend on the processing

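The counts of calls stayed within 1.5 times under the other scalings, pseudocounts of 0.5 and 0.02 CPM, and filters of 1 or 100 reads, for the members, the other pathway genes and all tested genes. The split by direction did not: members higher from 129 and from cas were 3 and 12 with TMM, 8 and 9 with column totals and 16 and 3 with 1 shared library size, and for all tested genes 50.0%, 61.9% and 81.3% of calls were higher from 129. Without the pairing by library (no replicate block), calls fell to 5 members, 23 other pathway genes and 3954 of all tested genes. By an exact binomial test in both libraries, added after seeing the data, 15 members were called, 14 of them also by limma; Fh1 was called by the first test only and Pfkm by limma only. Leaving out either library, limma has no residual degrees of freedom; by the exact binomial test in the remaining library, the calls were 22 and 23 for members, 55 and 60 for other pathway genes and 9154 and 10340 for all tested genes. The count models listed among the alternatives were not run, as the deposited unit is RPKM.

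The median of the members, -0.12, was 0.20 with 1 shared library size, -0.02 with column totals, -0.07 with the filter of 100 reads (which removed Aldoc) and -0.21 without Gapdh, Tpi1 and Pgk1, and ranged from -0.15 to -0.13 over single libraries. Ratios that turned positive with 1 shared library size were those of Slc2a1 (0.26), Hk2 (0.30), Pgk1 (0.25), Pgam1 (0.05), Pkm (0.07), Dlat (0.12), Pcx (0.10), Idh2 (0.28), Idh3a (0.26), Idh3b (0.24), Ogdh (0.01), Dlst (0.17), Dld (0.27), Suclg2 (0.08), Sucla2 (0.09) and Mdh1 (0.07). Column totals did so for Slc2a1 (0.04), Hk2 (0.07), Pgk1 (0.02), Idh2 (0.06), Idh3a (0.03), Idh3b (0.01) and Dld (0.04). The construction of these scalings moves every ratio upward by nearly the same amount. In single libraries the sign changed for Ldha (-0.02), Idh2 (0.04), Idh3a (-0.18 to 0.04) and Idh3b (-0.19 to 0.01). Adding the copies' reads changed no call of a member, but 21 members had no copy. The copies of Tpi1, Pgk1, Pkm, Fh1, Mdh1 and Mdh2 held no reads, so nothing was added to these genes either. Depth limits Aldoc, Eno3 and Ldhb most.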

Other observations

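Some genes outside the set, singled out after their values were seen, are given here by their reads from 129 and cas. Rpia, an enzyme of the pentose phosphate pathway, had 220 reads from 129 and 568 from cas in library 1, and 237 and 488 in library 2 (log2 ratio -1.53, SE 0.16, adjusted p = 2.6e-20 in limma). Epas1, which encodes the hypoxia-inducible factor HIF-2 alpha, had 1798 and 2703, then 2441 and 3867 (-0.95, SE 0.07). Egln3, a prolyl hydroxylase that marks such factors for degradation, had 541 and 877, then 519 and 807 (-0.99, SE 0.12). Hif1a had 1166 and 1029, then 1195 and 954, a ratio of -0.08 without a call (adjusted p = 0.56 in limma). Bsg, a chaperone of the lactate carriers, was higher from 129 with 744 and 320, then 730 and 308 (0.90, SE 0.14), whereas the lactate carrier gene Slc16a1 was higher from cas (-0.40, SE 0.10). With 1 shared library size Rpia, Epas1, Egln3 and Bsg kept their calls, Slc16a1 had -0.07 without a call, and Hif1a had 0.25 with a call from 129.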
